A study of Mus musculus with 6 samples.

Results

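The genes described here are 40 genes of the interferon response, from the receptors through the nucleic acid sensors and transcription factors to the induced antiviral proteins, measured in livers of 6 male KK/H1J mice. Members were all probe sets that the platform annotation names with exactly 1 of these symbols, which gave 51 probe sets for 36 genes, out of 22626 probe sets and 12393 named genes on the array. Ddx58, Ifi44 and Xaf1 had no such probe set, the only probe set naming Isg15 names another gene too, and these 4 genes were not analysed here. KK/H1J is an inbred strain with obesity and diabetes that arise through many genes. The BPD group was 3 mice that received, through the tail vein, an adenovirus carrying the bifunctional liver enzyme PFK-2/FBPase-2 in a form that lacks its bisphosphatase activity, which raises the glycolytic activator fructose 2,6-bisphosphate. The GFP group was 3 mice given an adenovirus that carries green fluorescent protein, at the same stated dose. All mice were 12 to 14 weeks old by their age labels (the free description of BPD mouse 28 has 2 in place of 12), weighed about 35 g, were fed freely and were killed 7 days after injection, and 1 array was hybridised per mouse. Both groups thus carried an adenovirus, and no uninjected liver is among these samples, so a response to the vector itself cannot be told apart from the level of these genes in an untreated liver. The promoter that drives either transgene is not given in the sources used here.

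Type I interferons bind the receptor pair IFNAR1 and IFNAR2, and the kinases JAK1 and TYK2 then activate STAT2, which acts with IRF9 in a complex that binds the interferon-stimulated response element in promoters. Interferon gamma binds IFNGR1 and IFNGR2 and acts on gamma-activated sites, which control Irf1, the guanylate-binding proteins and the immunity-related GTPases. The cytosolic RNA sensors RIG-I (Ddx58) and MDA5 (Ifih1) act upstream, through IRF3 and IRF7, on the interferon genes themselves. Their relative LGP2 (Dhx58) modulates both. In the liver, hepatocytes, macrophages and endothelial cells all carry these receptors.

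Promoter sequences are shown for 5 members on which the results turn: Ifit1, Rsad2 and Gbp2, which differed several-fold among the GFP livers, and Isg20 and Irf8, whose BPD and GFP livers were separated more evenly. Each sequence is RefSeq's, build GRCm38.p6, from 250 bases before to 50 bases after an annotated start site, written 5′ to 3′ on the gene's strand. In the first 3, capitals mark the core of the interferon-stimulated response element, searched on both strands as GAAA, any 2 bases and GAAA again (TTTC, 2 bases and TTTC in reverse). In Isg20 and Irf8, capitals mark gamma-activated sites, searched as TTC, any 3 bases and GAA, which reads the same on both strands.
Ifit1, chr19:34640639-34640938, plus strand, with matches that begin 104 and 85 bases before the start site: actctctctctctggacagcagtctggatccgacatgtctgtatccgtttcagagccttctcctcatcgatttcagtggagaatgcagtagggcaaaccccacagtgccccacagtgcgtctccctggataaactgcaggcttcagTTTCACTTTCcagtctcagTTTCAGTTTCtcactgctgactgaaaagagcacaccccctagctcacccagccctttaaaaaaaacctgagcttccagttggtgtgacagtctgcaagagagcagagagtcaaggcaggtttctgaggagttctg
Rsad2, chr12:26456403-26456702, minus strand, with a match that begins 120 bases before the start site: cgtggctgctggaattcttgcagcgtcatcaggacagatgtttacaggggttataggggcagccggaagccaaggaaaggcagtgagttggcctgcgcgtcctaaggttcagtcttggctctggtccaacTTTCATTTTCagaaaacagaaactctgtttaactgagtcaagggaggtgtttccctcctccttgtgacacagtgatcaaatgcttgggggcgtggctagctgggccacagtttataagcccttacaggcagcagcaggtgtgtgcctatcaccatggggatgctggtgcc
Gbp2, chr3:142620413-142620712, plus strand, with a match that begins 59 bases before the start site: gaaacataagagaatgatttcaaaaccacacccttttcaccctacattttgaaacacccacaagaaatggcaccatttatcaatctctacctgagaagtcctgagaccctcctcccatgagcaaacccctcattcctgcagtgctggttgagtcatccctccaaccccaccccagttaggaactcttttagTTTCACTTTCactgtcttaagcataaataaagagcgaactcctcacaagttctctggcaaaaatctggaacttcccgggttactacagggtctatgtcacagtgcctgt
Isg20, chr7:78913174-78913473, plus strand, with a match that begins 73 bases before the start site: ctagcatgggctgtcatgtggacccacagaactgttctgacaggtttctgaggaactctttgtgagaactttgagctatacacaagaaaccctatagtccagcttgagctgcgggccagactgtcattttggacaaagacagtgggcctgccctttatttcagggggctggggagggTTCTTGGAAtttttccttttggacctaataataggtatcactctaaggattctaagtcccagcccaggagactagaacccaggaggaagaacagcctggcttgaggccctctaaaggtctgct
Irf8, chr8:120736108-120736407, plus strand, with matches that begin 171 and 153 bases before the start site: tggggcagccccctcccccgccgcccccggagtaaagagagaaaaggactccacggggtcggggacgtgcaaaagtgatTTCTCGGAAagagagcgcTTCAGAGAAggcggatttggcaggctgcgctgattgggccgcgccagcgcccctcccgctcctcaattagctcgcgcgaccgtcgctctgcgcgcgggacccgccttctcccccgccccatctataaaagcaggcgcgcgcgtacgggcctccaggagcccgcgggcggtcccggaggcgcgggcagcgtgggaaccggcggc

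Of the 40 genes, 33 had a promoter in the table, some with several start sites, and the window with a match is the one shown for Isg20 and Irf8 (1 of 3 windows and 1 of 2). The response element core stood in a promoter of 15 of these 33 genes (45.5%), against 3.99% of the 27025 genes in the table. They were Bst2, Ddx58, Eif2ak2, Gbp2, Gbp3, Ifih1, Ifit1, Ifit3, Ifitm3, Igtp, Irgm1, Isg15, Oas3, Rsad2 and Stat2. The gamma-activated site letters stood in 12 of 33 (36.4%), against 9.55% of all genes, and 4 genes held both motifs, which overlapped in Bst2 and Ifitm3. A match describes letters in a window and is no evidence of binding.

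The arrays had deposited median signals of 174 to 197 in the BPD livers and 135 to 157 in the GFP livers. Signals below are the deposited MAS5 values. Log2 differences are BPD minus GFP, after adding a constant of 16.3 and centring each array on its median. Each is given with the moderated standard error (SE) of a limma fit over all 13575 probe sets that passed a filter on low values. The median of all tested probe sets stood at -0.21 on this scale, at 0.10 with the deposited scaling and at -0.05 under quantile normalization, so a difference of a member is read against that shift. Of the 51 member probe sets 47 passed the filter, for 34 genes. Mx1 and Mx2, each with 1 probe set, did not pass, nor did 1 probe set each of Dhx58 and Irf3. Ifit2 and Oas2 passed only through their BPD livers and the dimmer tested probe set of Dhx58 only through its GFP livers. Markers of hepatocytes were bright in all 6 livers, with summed signals over 8 genes of 85760 to 99781 in BPD livers and 130840 to 142070 in GFP livers.

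Interferon genes were higher in the BPD livers for a few members only, and the 3 GFP livers differed widely from each other in many of the rest. Isg20, Oas2, Rsad2, Irf8 and Gbp2 rose, and Ifitm3 and the receptor gene Ifnar2 fell. Isg20 and 1 probe set each of Irf8 and Ifnar2 kept their call under every alternative setting run on them. The calls of Oas2, Rsad2, Gbp2 and Ifitm3 were lost under several, and Ifitm3 turned sign under quantile normalization. GFP mouse 31 lay below all BPD livers in 35 of the 47 member probe sets (74.5%), against 25.0% of all tested probe sets. Of 47 member probe sets, 8 (17.0%) were higher in BPD livers, where 8.29% of all tested probe sets were (limma, adjusted p under 0.05). Another 4 (8.51%) were lower, where 20.3% of all tested were, and 35 did not pass. Oas2, among the 8, and the dimmer tested Dhx58 probe set, among the 4, had passed the filter only through the group in which they are high, which leaves 7 and 3 without them. By gene, with the brightest probe set standing for each, 5 of 34 were higher (8.75% of all genes were) and 2 were lower (22.2% of all genes were). The 5 again include Oas2, which had passed the filter only through its BPD livers. The balance moved with the scaling, to 15 probe sets higher and 1 lower with the deposited scaling and to 10 higher and 3 lower under quantile normalization.

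Across the members the median log2 difference was 0.35, which is 0.55 above that of all tested probe sets, and it was 0.55 and 0.53 above under the deposited scaling and quantile normalization. Positive differences were found in 36 of 47 member probe sets, against 4541 of all 13575. The 36 include Ifit2 and Oas2, which had passed the filter only through their BPD livers. After centring, the 3 BPD livers were all above the GFP livers in 12 of 47 member probe sets, and in 12.7% of all tested probe sets. They were all below the GFP livers in 7 of 47, and in 34.0% of all tested. In deposited signals these counts were 18 of 47, where 27.1% of all tested lay above, and 3 of 47, where 16.5% of all tested lay below. On both scales the counts above include Oas2 and the counts below include the dimmer tested Dhx58 probe set. Each of these had passed the filter only through the group in which it is high. In bulk liver, fewer cells of a type and less RNA per cell cannot be told apart. The counts changed with single mice. Without GFP mouse 22, 18 member probe sets were higher. Without BPD mouse 23 or BPD mouse 28 there were 2, without BPD mouse 36 there were 4, without GFP mouse 29 there were 3 and without GFP mouse 31 there were 5. The 4 lower probe sets became 1 without BPD mouse 23 or 28 and 2 without any 1 of the GFP mice. The median difference relative to all probe sets was 0.88 without GFP mouse 22 and 0.29 without GFP mouse 31.

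**Figure D1:**
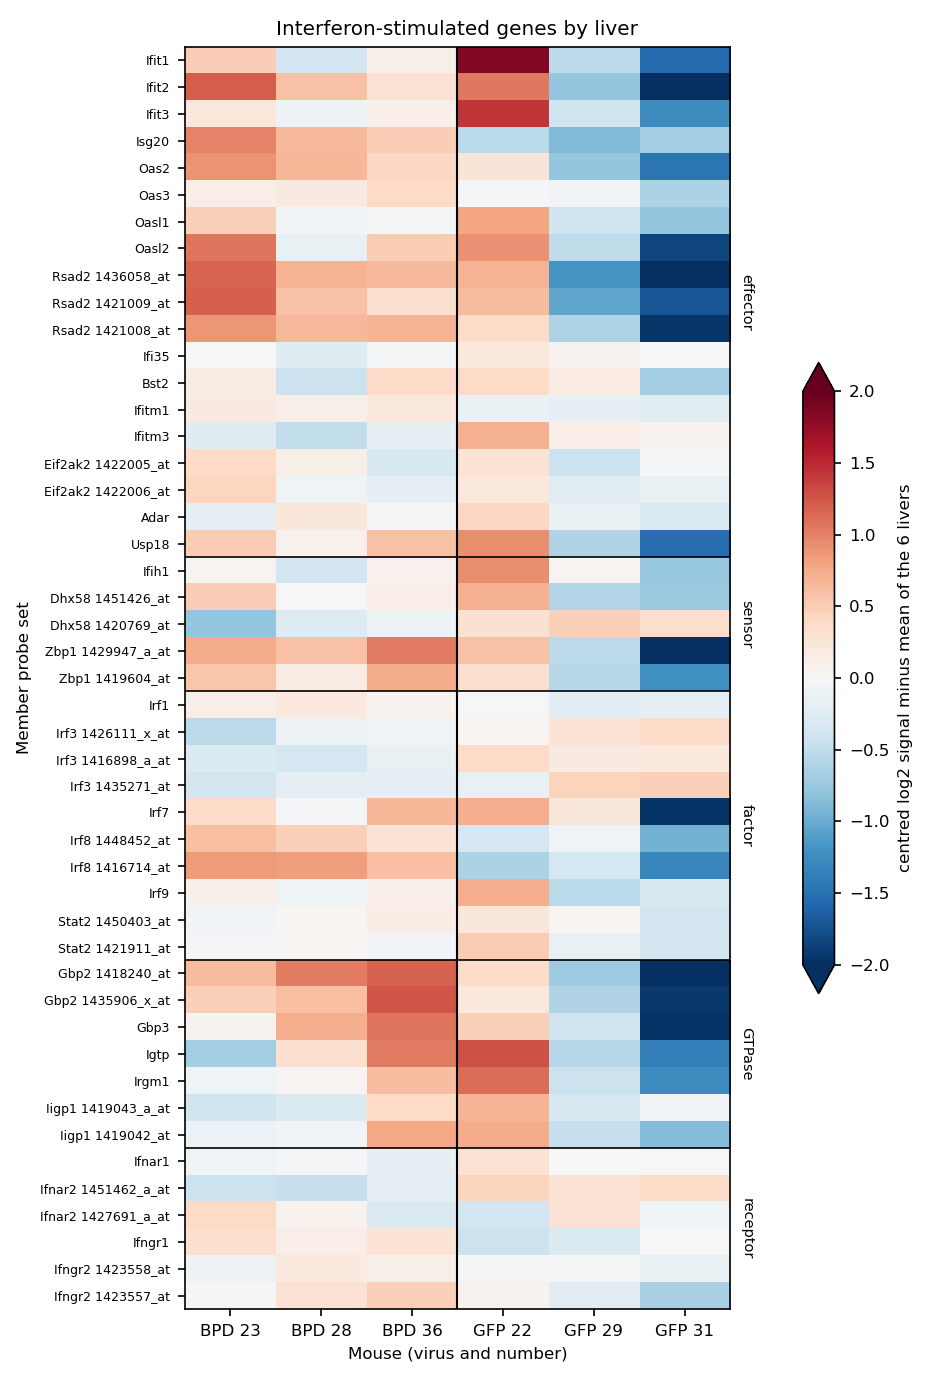
Centred log2 signal of each tested member probe set (rows, grouped by role) in each liver (columns), minus the mean of the 6 livers, on a colour scale from -2 to 2. The GFP 22 column is mostly red and the GFP 31 column mostly blue, while most rows vary less among the 3 BPD columns.

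**Figure D2:**
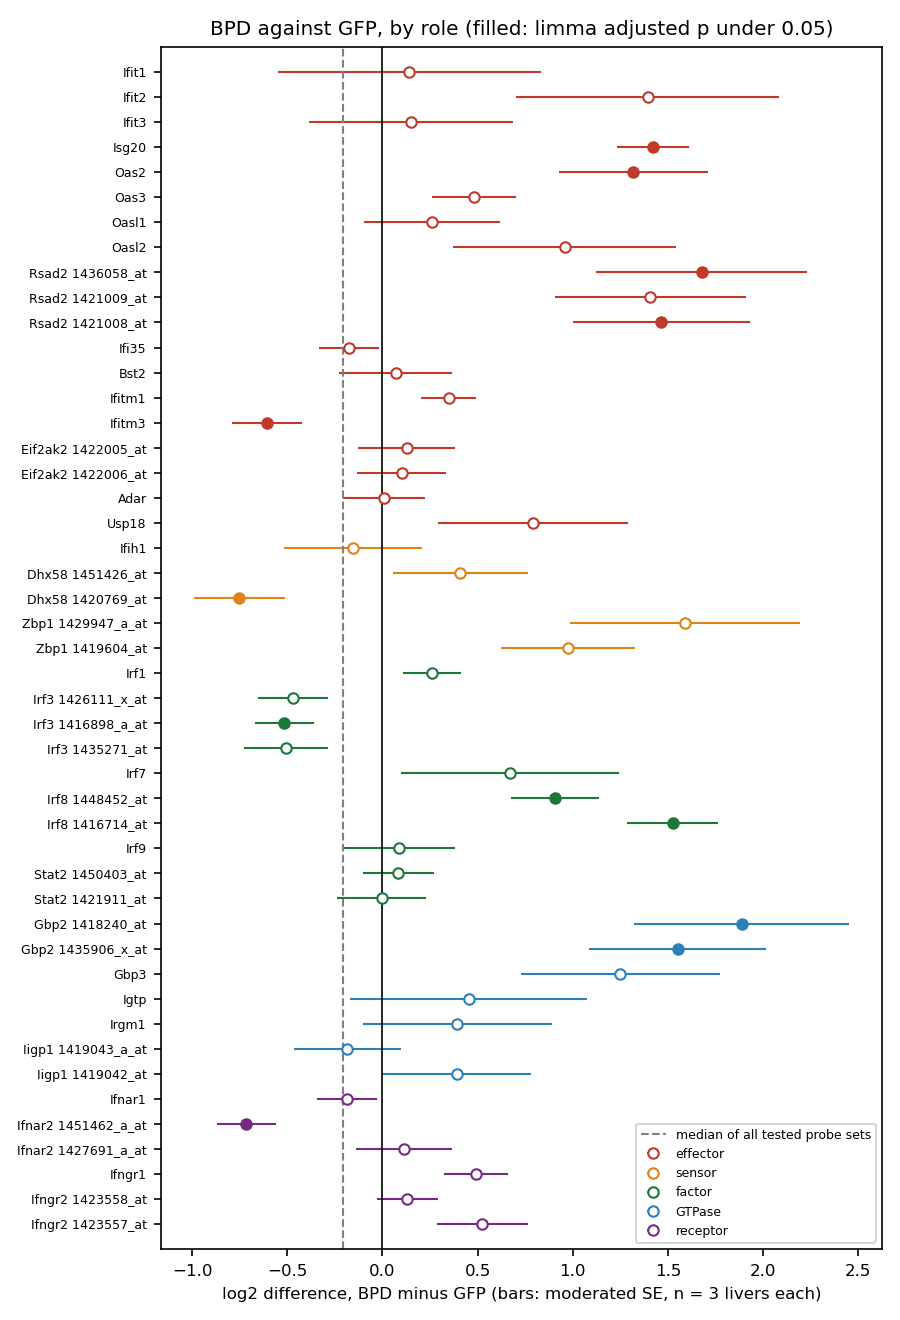
Log2 difference of BPD minus GFP (horizontal axis) for each of the 47 tested member probe sets, coloured by role, with the moderated SE as bars (n = 3 livers each). Filled points passed the test, 8 to the right and 4 to the left of 0, and the dashed line marks the median of all tested probe sets at -0.21.

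The 3 GFP livers differed from each other in the interferon genes far more than in most genes. Among GFP livers the median SD of the member probe sets was 0.52 on the log2 scale, against 0.21 for all tested probe sets. Among BPD livers the member median was 0.25, against 0.21 for all. The SD was larger among GFP than among BPD livers in 38 of 47 member probe sets (80.9%), against 49.7% of all tested. Of the 5% of tested probe sets with the widest spread in BPD livers, 2 were members, and of the 5% with the widest spread in GFP livers 22 were, from 18 genes. The deposited signal spanned over 2-fold in 3 member probe sets among BPD livers and in 25 among GFP livers, where 7.74% and 9.51% of all tested probe sets did.

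The GFP livers also kept 1 order. GFP 22 was the highest of the 3 in 40 of 47 member probe sets, and GFP 31 was the lowest in 34. The order GFP 22, then 29, then 31 held in 32 of 47 (68.1%), against 22.1% of all tested probe sets. Among BPD livers the most frequent order, mouse 36, then 28, then 23, held in 13 of 47 (27.7%), against 19.7% of all tested. Set against the BPD livers after centring, GFP 22 lay above all 3 of them in 23 member probe sets (48.9%), within their range in 11 (23.4%) and below it in 13 (27.7%), near the shares of all tested probe sets, which were 54.2%, 25.7% and 20.1%. GFP 29 lay below all 3 in 30 and GFP 31 in 35 (74.5%), where 25.2% and 25.0% of all tested probe sets lay below. All probe sets of a liver come from 1 array, so the 47 are not independent observations.

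**Figure D3:**
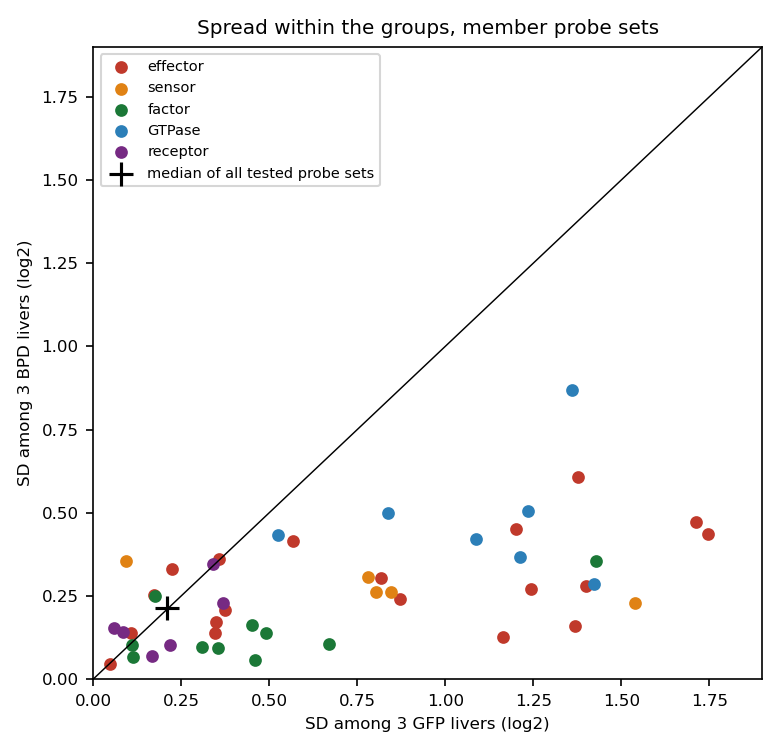
SD among the 3 BPD livers (vertical axis, log2) against SD among the 3 GFP livers (horizontal axis, log2) for the 47 tested member probe sets, with the line of equal spread. Most points, 38 of 47, lie below the line, and the cross marks the medians of all tested probe sets at 0.21 and 0.21.

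**Figure D4:**
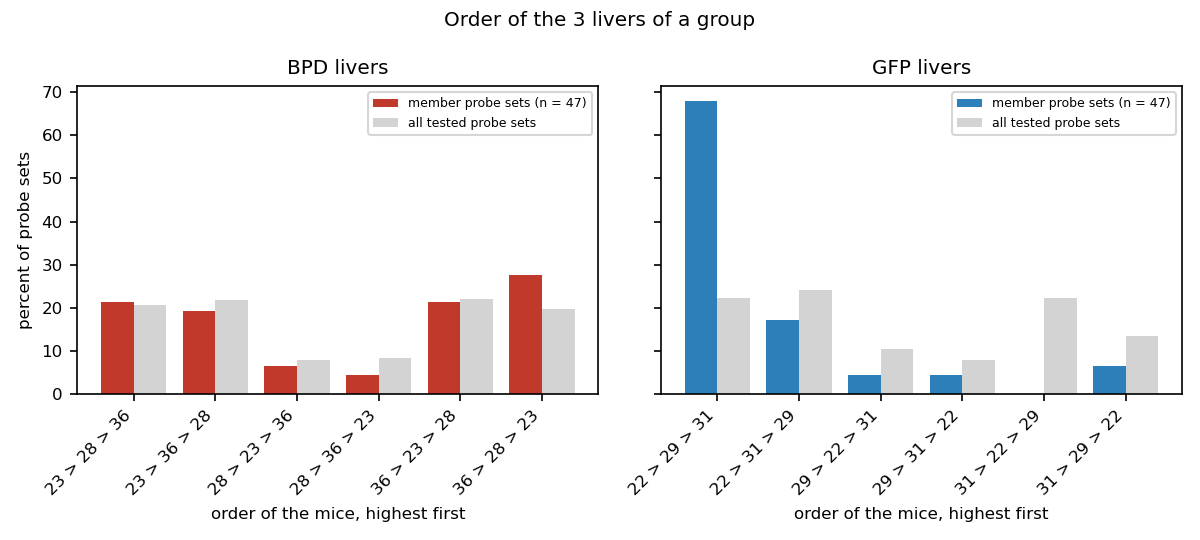
Percent of probe sets (vertical axis) in each of the 6 possible orders of the livers within the BPD and the GFP group, for the 47 member probe sets and for all tested probe sets in grey. The order GFP 22, 29, 31 holds 68.1% of the members and 22.1% of all.

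Of 7 lists of cell type markers, 1 followed the same order among GFP livers, that of plasmacytoid dendritic cells. Most of its sum in GFP livers was the member Bst2, with 2094, 2034 and 1033 in GFP mice 22, 29 and 31. That list is thus not independent of the members. The summed signal of 14 macrophage and Kupffer cell markers was 45749, 41617 and 20918 in BPD mice 23, 28 and 36, and 10068, 18832 and 5675 in GFP mice 22, 29 and 31. In deposited signals it was thus higher in every BPD liver than in any GFP liver, and highest among GFP livers in mouse 29, not in mouse 22. The sums were not centred. The nearest livers, BPD 36 and GFP 29, had array medians of 176 and 157, so their separation depends on the scaling. Of the 12 such markers tested, 8 were higher in BPD livers, and 4 did not pass. Those 4 were Cd5l (1.45, limma adjusted p = 0.0541), Csf1r (1.19, 0.0803), Vsig4 (0.48, 0.557) and Clec4f (-0.58, 0.471). The Vsig4 signal of BPD 36, 259, lay below all GFP livers (352 to 713), and the other BPD livers lay above them. Marco was dim in all 6 livers (5.31 to 20.2). The Kupffer cell marker Clec4f did not follow the sum, with 748, 513 and 112 in BPD livers and 398, 299 and 692 in GFP mice 22, 29 and 31. Cd163 was under the filter, at 15.4 to 40.4 in BPD livers and 17.1, 53.0 and 275 in GFP mice 22, 29 and 31. The 11 T and NK cell markers summed to 1375 to 1992 in BPD livers and to 568, 1185 and 423 in GFP mice 22, 29 and 31, with 2 of 4 tested higher in BPD livers. The 7 neutrophil markers summed to 1757 to 8184 in BPD and to 452 to 721 in GFP livers, with 4 of 5 tested higher. The 4 B and plasma cell markers summed to 366 to 798 in BPD and to 266 to 402 in GFP livers, with 0 of 2 higher (Jchain had an adjusted p of 0.0560 by limma). The 4 plasmacytoid dendritic cell markers summed to 4782 to 7289 in BPD livers and to 2559, 2469 and 1376 in GFP mice 22, 29 and 31. They include the member Bst2 (0.07) and Ly6d, the only one that rose (4.38, limma adjusted p = 0.00018). Ly6d had 4642, 3664 and 1905 in BPD mice 23, 28 and 36, and 159, 108 and 72.8 in GFP mice 22, 29 and 31. The higher sum in BPD livers thus came mainly from Ly6d. Tcf4 did not pass (-0.03, limma adjusted p = 0.932), and Ccr9 lay at 4.28 to 39.0 in all livers. The 8 endothelial markers summed to 2076 to 3127 in BPD and to 1597 to 2582 in GFP livers, with 1 of 7 tested higher and 1 lower, and 7 of 8 hepatocyte markers were lower in BPD livers. The part of these cells in the interferon results was not tested. The ratio of 3′ to 5′ signal of the Gapdh control was 0.863, 0.735 and 0.745 in BPD mice 23, 28 and 36, and 0.785, 0.796 and 0.900 in GFP mice 22, 29 and 31. That of beta-actin was 1.75, 1.23 and 1.26 in the BPD livers and 1.56, 1.40 and 1.59 in the GFP livers. The groups overlapped in both ratios, and GFP 31, the lowest of its group in most members, had the highest Gapdh ratio of all livers. The part of RNA quality in the interferon results was not tested.

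Among the effector genes, the tetratricopeptide proteins Ifit1, Ifit2 and Ifit3, which bind viral RNA, spread widely among GFP livers. Ifit1 had signals of 481, 288 and 372 in BPD mice 23, 28 and 36, against 1006, 210 and 84.8 in GFP mice 22, 29 and 31. Mouse 22 stood above and mice 29 and 31 below all BPD livers, an 11.9-fold range within the GFP group, and the difference was 0.14 ± 0.69 (SE, limma adjusted p = 0.893). Ifit3 had 666, 598 and 626 in BPD livers and 1243, 390 and 190 in GFP livers, with the same order and a difference of 0.15 ± 0.54. Ifit2 had 354, 253 and 180 in BPD livers and 247, 68.9 and 9.48 in GFP livers, the last below the added constant, and the difference of 1.39 ± 0.69 did not pass (limma adjusted p = 0.156). The groups overlapped in all 3 genes, since GFP 22 reached the BPD level or passed it. Without GFP mouse 22, Ifit2 (2.27) and Ifit3 (0.90) did pass, and Ifit1 did not. Without GFP mouse 31 none of them passed, at 0.56 for Ifit2, -0.44 for Ifit3 and -0.60 for Ifit1.

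Rsad2 encodes viperin, a radical enzyme that makes a chain-terminating nucleotide. Its brightest probe set had 2131, 1733 and 1519 in BPD mice 23, 28 and 36, against 1228, 370 and 180 in GFP mice 22, 29 and 31. Every BPD signal lay above every GFP signal, although after centring GFP 22 fell within the BPD range. Rsad2 rose by 1.68 ± 0.55, or 3.20-fold (limma adjusted p = 0.0484), and its other probe sets stood at 1.46 ± 0.46 (0.0422) and 1.41 ± 0.50 (0.0617). The call was lost without any 1 mouse other than GFP 22, without the filter, with robust eBayes and with a constant of 1, with adjusted p from 0.0519 to 0.125, and without GFP 31 the difference was 1.08.

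**Figure D5:**
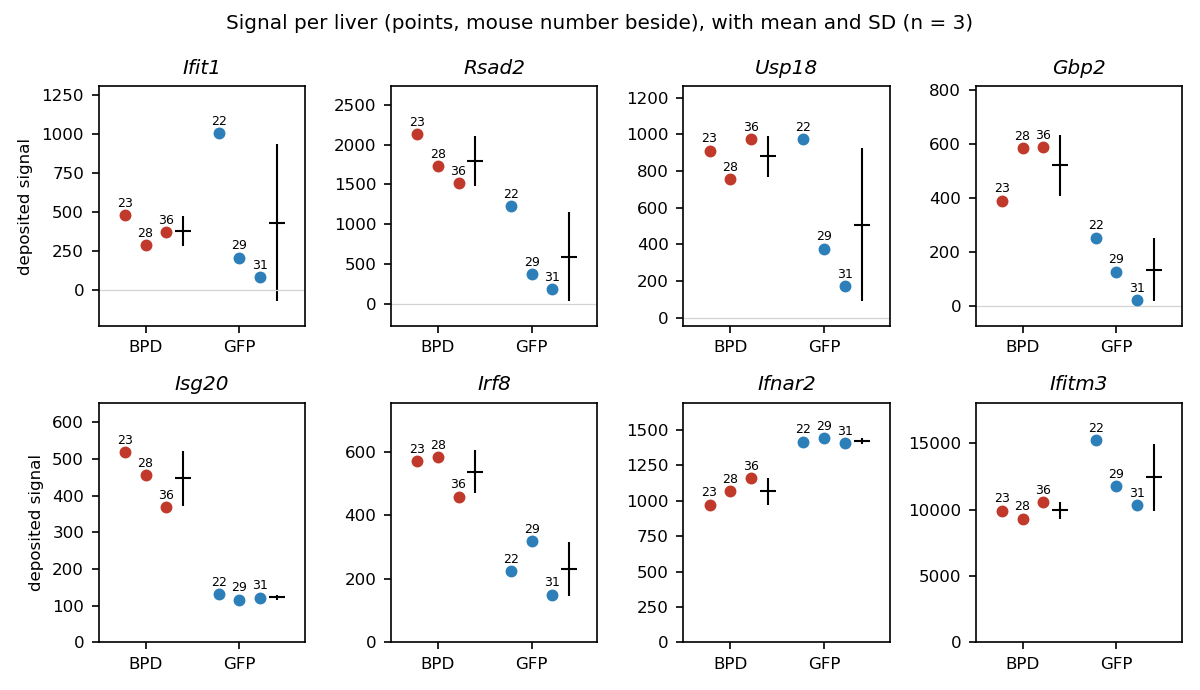
Deposited signal (vertical axis) of 8 members in the 3 BPD and 3 GFP livers, each point labelled with its mouse number, with mean and SD (n = 3) beside. In Ifit1, Rsad2, Usp18 and Gbp2 the GFP livers descend steeply in the order 22, 29, 31, while in Isg20 and Ifnar2 they lie close together and apart from the BPD livers.

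Isg20, an exonuclease that degrades RNA, was the clearest exception. It had 518, 456 and 369 in BPD mice 23, 28 and 36, against 131, 116 and 122 in GFP mice 22, 29 and 31. The lowest BPD liver lay far above the highest GFP liver, and the GFP livers differed by only 1.13-fold. Isg20 rose by 1.42 ± 0.19, or 2.68-fold (limma adjusted p = 0.0011), and kept its call under all 12 alternatives that could be run on it, with differences from 1.14 to 1.72.

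The oligoadenylate synthetases make the second messenger that activates RNase L, and the Oasl proteins are their relatives. Oas2 had 224, 213 and 158 in BPD mice 23, 28 and 36, against 107, 52.7 and 22.8 in GFP mice 22, 29 and 31. The groups did not overlap, and Oas2 rose by 1.32 ± 0.39, or 2.49-fold (limma adjusted p = 0.0334), having passed the filter only through its BPD livers. The call was lost without the filter and without BPD 23, BPD 28, GFP 29 or GFP 31, and with a constant of 50% of the median the rise was 0.79. Oas3 had 176, 206 and 217 in BPD livers and 120, 137 and 77.3 in GFP livers. The groups did not overlap there either, but the difference of 0.48 ± 0.22 did not pass (limma adjusted p = 0.131) except with the deposited scaling. Oasl2 had 469, 218 and 316 in BPD livers and 329, 132 and 37.5 in GFP livers, with a difference of 0.96 ± 0.59 (limma adjusted p = 0.243). Oasl1 ranged from 466 to 666 in BPD and from 221 to 655 in GFP livers, at 0.26 ± 0.36. In both Oasl genes the signal of GFP 22 lay within the BPD range.

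Usp18, which removes ISG15 from proteins and blocks signalling at IFNAR2, had 911, 756 and 975 in BPD mice 23, 28 and 36, against 974, 376 and 172 in GFP mice 22, 29 and 31. The signal of GFP 22 lay within the BPD range and those of the other GFP livers below it. The difference was 0.79 ± 0.50 (limma adjusted p = 0.257). Without GFP 22 it was 1.46 and passed, and without GFP 31 it was 0.23 and did not. Among the membrane proteins that restrict viral entry or release, Ifitm3 had 9932, 9317 and 10582 in BPD livers against 15243, 11744 and 10323 in GFP livers. The deposited signals of the groups overlapped, but after centring all BPD livers lay below, and Ifitm3 fell by 0.61 ± 0.19 (limma adjusted p = 0.0371). This call was lost with the deposited scaling (-0.30), without the filter and without BPD 23, BPD 28 or GFP 22, and the sign turned under quantile normalization (0.01). Its relative Ifitm1 lay at 592, 640 and 615 in BPD livers, above 374, 421 and 368 in GFP livers, at 0.35 ± 0.14 (limma adjusted p = 0.0964), and passed with the deposited scaling (0.65) and under quantile normalization (0.47). Bst2, or tetherin, had 2195, 1655 and 2633 in BPD livers and 2094, 2034 and 1033 in GFP livers, at 0.07 ± 0.30, with overlapping groups.

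The remaining effectors did not pass. They were Ifi35 (-0.18 ± 0.16), a binding partner of Nmi, Eif2ak2 (0.13 ± 0.26), the kinase PKR that halts translation on double-stranded RNA, and Adar (0.01 ± 0.22), which edits adenosine in double-stranded RNA. Their SD among GFP livers lay below the member median of 0.52, with 0.36 for Eif2ak2, 0.38 for Adar and 0.11 for Ifi35. The dynamin-like GTPases Mx1 and Mx2 lay under the filter, Mx1 at 111 to 119 in BPD and 16.8 to 102 in GFP livers, and Mx2 at 36.6 to 202 in BPD and 38.5 to 214 in GFP livers.

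No sensor gene rose. Zbp1, which recognises left-handed nucleic acid and can start necroptosis, came closest. Its brightest probe set had 401, 404 and 504 in BPD mice 23, 28 and 36, against 282, 142 and 21.6 in GFP mice 22, 29 and 31, with no overlap between groups. The difference of 1.59 ± 0.60 did not pass (limma adjusted p = 0.0757), nor did that of the second probe set (0.97 ± 0.35). Without GFP 22 both did, at 2.28 and 1.38, and without GFP 31 neither did, at 0.76 and 0.60. Ifih1 had 977, 806 and 1015 in BPD livers and 1431, 892 and 454 in GFP livers, at -0.15 ± 0.36, and turned to 0.15 with the deposited scaling and 0.07 under quantile normalization without passing. The probe sets of Dhx58 disagreed. The brighter one had 334, 259 and 258 in BPD livers and 308, 134 and 107 in GFP livers, at 0.41 ± 0.35. The other tested one had 62.0, 110 and 111 in BPD livers and 115, 154 and 126 in GFP livers and fell by 0.75 ± 0.24 (limma adjusted p = 0.0417). It had passed the filter only through its GFP livers, and the call was lost with the deposited scaling, without the filter and without any 1 mouse other than BPD 36. The third was too dim to test.

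The transcription factors fell into 3 patterns. Irf8, a factor of myeloid cells that is induced by interferon gamma, rose in both probe sets. One had 621, 690 and 528 in BPD mice 23, 28 and 36, against 165, 237 and 103 in GFP mice 22, 29 and 31. The brighter one had 569, 583 and 459 in BPD livers and 225, 320 and 151 in GFP livers. In neither did the groups overlap, and in both the order among GFP livers was 29, then 22, then 31. The summed markers of macrophages, of T and NK cells and of endothelial cells all had that order. The rises were 1.53 ± 0.24 (limma adjusted p = 0.0023), kept under all 14 alternatives, and 0.91 ± 0.23 (limma adjusted p = 0.0174), lost without BPD 23 or BPD 28. The part of any of these cell types in this rise was not tested.

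Irf7, the factor that amplifies type I interferon production, followed the spread among GFP livers. It had 2031, 1685 and 2489 in BPD livers, against 2036, 1659 and 320 in GFP mice 22, 29 and 31. Only GFP 31 stood well apart, and the difference of 0.67 ± 0.57 did not pass (limma adjusted p = 0.396). Irf9, the DNA-binding part of the STAT complex, had 408, 401 and 411 in BPD livers and 500, 231 and 248 in GFP livers, at 0.09 ± 0.29. Its partner Stat2 had 338, 403 and 393 in BPD and 324, 325 and 219 in GFP livers, at 0.08 ± 0.19, and its dimmer probe set stood at 0.00 ± 0.23. Irf1, a factor induced by interferon gamma, had 1476, 1754 and 1450 in BPD livers and 1078, 1064 and 1003 in GFP livers. These groups did not overlap, and the GFP livers were close together. The centred difference of 0.26 ± 0.15 did not pass (limma adjusted p = 0.218), while 0.56 with the deposited scaling and 0.55 under quantile normalization did.

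Irf3, which is present before any interferon signal and is activated by phosphorylation, had negative differences in its 3 tested probe sets. The brightest had 646, 970 and 899 in BPD livers and 763, 1034 and 1022 in GFP livers, at -0.47 ± 0.18 (limma adjusted p = 0.0819). The second had 248, 266 and 277 in BPD and 316, 313 and 295 in GFP livers, with no overlap, and fell by 0.52 ± 0.15 (limma adjusted p = 0.0344). This call was lost with the deposited scaling (-0.21), without the filter and without any 1 mouse other than BPD 36. The third stood at -0.51 ± 0.22.

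The guanylate-binding proteins and immunity-related GTPases, which attack the vacuoles of intracellular pathogens, included the largest rise among members. Gbp2 had 391, 586 and 589 in BPD mice 23, 28 and 36, against 254, 128 and 23.8 in GFP mice 22, 29 and 31. The groups did not overlap, although the GFP livers spanned 10.7-fold. Gbp2 rose by 1.89 ± 0.57, or 3.70-fold (limma adjusted p = 0.0342), and its second probe set by 1.55 ± 0.47 (0.0343). The first call was lost without the filter, with robust eBayes and without any 1 of the BPD mice or GFP 29, with adjusted p from 0.0546 to 0.0987, and without GFP 31 the rise was 1.13. Gbp3 had 287, 516 and 597 in BPD livers and 304, 183 and 45.6 in GFP livers. The groups overlapped, and the difference of 1.25 ± 0.52 did not pass (limma adjusted p = 0.101).

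For Igtp, Irgm1 and Iigp1 no difference passed the test. Igtp had 2243, 5116 and 7585 in BPD livers and 7005, 2213 and 1158 in GFP livers, at 0.45 ± 0.62. Its SD among BPD livers, 0.87, was the widest of the tested members. Irgm1 had 1200, 1488 and 1978 in BPD livers and 2204, 859 and 427 in GFP livers, at 0.39 ± 0.50. Iigp1 had 6307, 7733 and 11177 in BPD livers and 10666, 6075 and 6594 in GFP livers, at -0.18 ± 0.28, and its dimmer probe set stood at 0.39 ± 0.39. In a comparison chosen after the values were seen, the BPD signals of Gbp2, Gbp3, Igtp, Irgm1 and Iigp1 were lowest in mouse 23, the mouse in which Ifit1, Ifit2, Ifit3, Oas2, Oasl1, Oasl2 and Rsad2 were highest. Other effectors differed, with Oas3 lowest in mouse 23 and Usp18 and Bst2 highest in mouse 36.

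The receptor genes varied least among GFP livers, with a median SD of 0.19, near the 0.21 of all tested probe sets. Ifnar2 had 972, 1067 and 1158 in BPD mice 23, 28 and 36, against 1419, 1442 and 1406 in GFP mice 22, 29 and 31. The GFP livers differed by 1.03-fold, all lay above the BPD livers, and Ifnar2 fell by 0.72 ± 0.16 (limma adjusted p = 0.0094). This call held under all 13 alternatives run on it, from -0.80 to -0.41, with -0.44 under quantile normalization and -0.41 with the deposited scaling, although a second, dimmer probe set stood at 0.12 ± 0.25. Ifnar1 had 432, 503 and 411 in BPD livers and 443, 418 and 376 in GFP livers, with overlapping signals, though after centring all BPD livers lay below, and its -0.19 ± 0.16 lay close to the median of all probe sets. Ifngr1, which binds interferon gamma, had 806, 784 and 780 in BPD livers and 367, 468 and 525 in GFP livers. Every BPD liver lay above every GFP liver, and the difference of 0.49 ± 0.17 narrowly missed the threshold (limma adjusted p = 0.0538), which it passed with the deposited scaling (0.79) and under quantile normalization (0.65). Ifngr2, its signalling partner, had 258, 360 and 306 in BPD livers and 215, 245 and 208 in GFP livers, at 0.13 ± 0.16. Its second probe set had 151, 208 and 216 in BPD livers and 122, 113 and 71.0 in GFP livers, at 0.53 ± 0.24 (limma adjusted p = 0.127), and passed with the deposited scaling (0.83). In both probe sets the deposited signals did not overlap, and after centring they did.

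Promoter letters were set beside the spread as a description only. Among the 13 tested members whose promoter held the response element core, the median SD among GFP livers was 1.21 and 12 showed the order 22, 29, 31. Among the 16 tested members with a promoter but no such match these were 0.20 and 9. The 16 include all the receptor genes and Irf3, while the 13 include no receptor gene, so motif and role go partly together here. Effectors stand in both lists. Their SD among GFP livers ran from 0.35 (Oas3) to 1.75 (Ifit1) with a match, and from 0.05 (Ifitm1) to 1.71 (Ifit2) without. The part of motif or role in the spread was not tested. Over all tested genes the corresponding medians were 0.21 for the 256 with a match and 0.20 for the 6409 without, and 34.4% and 21.4% showed that order. Ifit2, Oasl2 and Irf7 spread as widely without a match in this window, and Ifitm3, Eif2ak2 and Stat2 had an SD of 0.35, 0.36 and 0.31 with one.

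Outside the 40 genes, a list of 84 further genes of interferon signalling was followed, of which 65 had a probe set and 51 were tested, each by its brightest probe set. Of the 51, 9 were higher in BPD livers and 2 lower, where 8.75% and 22.2% of all genes were. Cd274, among the 9, and Ifna2, among the 2, had passed the filter only through the group in which they are high. The 9 became 19 with the deposited scaling, 5 without BPD 23, and 4 without BPD 28 or GFP 31, and the 2 became 1 without BPD 28 and 3 without BPD 36 or GFP 29. The rises lay mostly in the group of further induced genes, 8 of 36. The largest were those of Slfn4 (2.07 ± 0.48) and Slfn2 (1.89 ± 0.28), schlafen proteins of immune cells, and of Ifi30 (1.85 ± 0.30), a lysosomal thiol reductase of antigen-presenting cells. The chemokine Cxcl10 (1.60 ± 0.44), the checkpoint ligand Cd274 (1.49 ± 0.43), the scavenger receptor domain protein Lgals3bp (1.27 ± 0.34), the caspase Casp1 (0.91 ± 0.28) and the nucleotide hydrolase Samhd1 (0.66 ± 0.19) rose too, though the 4 tested probe sets of Samhd1 ranged from -0.17 to 0.66. Among kinases and signal carriers 1 of 12 was higher, Ikbke (0.95 ± 0.30), a kinase that activates IRF3, while Jak1 (0.00 ± 0.17), Jak2 (0.11 ± 0.15) and Tyk2 (-0.14 ± 0.15) stood near 0. The 9 that rose had limma adjusted p from 0.0020 to 0.0397. Irf2, an antagonist of Irf1, fell by 1.19 ± 0.27 (limma adjusted p = 0.0118). The order GFP 22, 29, 31 held in 29 of the 36 further induced genes and in 3 of the 12 kinases and carriers.

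Of 5 interferon genes with a probe set, 4 were under the filter. Ifnb1 reached at most 63.4 in any liver, Ifng 38.9, Ifna1 193 and Ifna4 8.59. The single Ifna2 probe set had 69.2, 108 and 103 in BPD livers and 189, 237 and 189 in GFP livers and fell by 1.32 ± 0.20 (limma adjusted p = 0.0021), having passed the filter only through the GFP livers. The interferon alpha genes are near-identical copies, so which of them this signal comes from is uncertain. It did not follow the order of the induced genes, since GFP 29 was the highest.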

How the data were processed

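Liver RNA of 6 mice was hybridised to 1 array each. The deposited values are MAS5 signal intensities, 1 per probe set, per the submitters' processing notes, and the version is not given in the sources used here. Each array had been scaled, as the values show, to the same trimmed mean. MAS5 combines the probes of a set after background correction, and low signals are imprecise. The number of arrays, 3 a group, limits the precision. The SE and p-values rest on the spread between these mice after limma moderated it toward a trend over all probe sets. For members that spread more widely than this trend, the moderated SE is smaller than an unmoderated one would be. With robust eBayes, which moderates such wide spreads less, 4 member calls were lost. From the intensities, log2(signal + 16.3) was computed, the constant being 10% of the median of all values, and each array was centred on its median. Of 22626 probe sets (64 controls left out) the 13575 whose mean over all 6 livers lay above the 40th percentile were fitted with limma 3.58.1 (lmFit, eBayes with trend) in R 4.3.3, with Benjamini-Hochberg adjustment over all of them and a threshold of 0.05. The fit was also run on simulated data with independent noise of equal spread in both groups. Most members spread more among GFP livers and shared an order of the mice, so that run does not test the calls on them.

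The platform annotation names 20380 probe sets with 1 symbol, 691 with several and leaves 1555 unnamed, and all 51 member probe sets matched RefSeq by gene ID. Genes were named by rule: the widest ranges among GFP livers, the highest signals, the interferon regulatory factors and Stat2, the receptors, and all members that passed the test. Members, marker lists and pathway lists were chosen with earlier results of these data known. Alternatives were other constants, scalings and filters, robust eBayes, no multi-transcript probe sets, and each mouse left out. The transgene's own gene was not analysed here. No date or batch was used, since the labels give none.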

Additional observations from a re-analysis of the deposited data

How the results depend on the processing

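No paired analysis was possible because the mouse numbers are not shared between the groups. With the deposited scaling, 15 member probe sets (9 genes) were higher and 1 (1 gene) lower, with 19 further pathway genes higher, and 2265 of all probe sets higher and 1314 lower. Quantile normalization gave 8 member genes higher and 1 lower, and 1691 of all probe sets higher and 1637 lower. Without the filter, 3 member probe sets (2 genes) were higher and 1 (1 gene) lower. With the filter at the 60th percentile, which left 28 member probe sets, 4 (3 genes) were higher, 1 further gene was lower, 698 of all were higher, and the order GFP 22, 29, 31 held in 19. Robust eBayes left 4 member probe sets (3 genes) higher. Without multi-transcript probe sets, 2 member probe sets (1 gene) and 1 further gene were lower, and 723 of all were higher. With 1 mouse left out, 2 to 18 member probe sets (1 to 13 genes) were higher and 1 to 4 (1 to 2 genes) lower, 4 to 13 further genes were higher and 1 to 3 lower, and 628 to 1228 of all were higher and 1378 to 2763 lower. The median difference relative to all probe sets then ranged from 0.29 to 0.88. The median SD among GFP livers ranged from 0.46 to 0.57 over the other settings. It and the order were not recomputed with a mouse left out. The cause of these changes was not tested.

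Signs turned in the following, and only Ifitm3 among them had passed the test. Adar was -0.0019 with a constant of 1. With the deposited scaling, Ifi35 was 0.12, Ifih1 0.15, Iigp1 0.12, Ifnar1 0.11 and the dimmer Stat2 probe set 0.30. With quantile normalization, Ifih1 was 0.074, Iigp1 0.40, Ifi35 0.0076, Stat2 0.019 and Ifitm3 0.013. With 1 mouse left out, differences ranged from -0.60 to 1.10 for Ifit1, -0.44 to 0.90 for Ifit3, -0.14 to 1.20 for Irf7, -0.12 to 1.20 for Igtp, -0.15 to 1.05 for Irgm1, -0.066 to 0.72 for Oasl1, -0.14 to 0.22 for Adar, -0.087 to 0.21 and -0.19 to 0.25 for Stat2, and from -0.57 without GFP 31 to 0.27 without GFP 22 for Ifih1. In those probe sets the lowest value came without GFP 31 and the highest without GFP 22. They ranged from -0.43 to 0.11 for Iigp1, -0.16 to 0.47 for Irf9, -0.25 to 0.30 for Bst2, -0.059 to 0.32 and -0.087 to 0.23 for Eif2ak2, and -0.055 to 0.29 for the dimmer Ifnar2 probe set.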
